A study of Mus musculus with 4 samples.

Results

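The cells described here are the enteroendocrine cells of the mouse duodenal crypt that the authors set apart from serotonin-making enterochromaffin cells and named NON-EC. They were taken as every cell with that name in the authors' deposited tables of cells, 723 of 15234 named cells, matched by library and barcode to the raw matrices. The study sorted reporter-positive crypt cells and sequenced them one by one, with 2 libraries from wild-type mice and 2 from mice in which Apc was deleted. WT mice carried Atoh1CreER-T2 and R26RTom, a red fluorescent reporter switched on by recombination. APC-KO mice carried in addition the Apc fl/fl alleles, and their sample labels name the driver Atoh1Cre where the series design text has Atoh1CreER-T2. Mice of both genotypes received 2 doses of 1 mg/mL tamoxifen 24 h apart by intraperitoneal injection, and crypt cells were collected 12 h after the last dose. Both reporter and recombinase depend on Atoh1, a factor of the secretory lineage, so the sort itself set which cells could enter the libraries and in what shares. The labels give no age, sex or animal for a library, so all p-values measure the spread between libraries, which may be technical.

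Enteroendocrine cells are scattered hormone-secreting cells of the gut epithelium that sense nutrients and release peptides into the blood. They arise from secretory progenitors that switch on the transcription factor Neurog3, and the precursors then divide into an enterochromaffin branch, which makes serotonin, and a peptide branch. Cells of the peptide branch are classically named by one hormone each: X cells by ghrelin (Ghrl), I cells by cholecystokinin (Cck), K cells by the incretin Gip, L cells by proglucagon (Gcg), D cells by somatostatin (Sst) and S cells by secretin (Sct). A single cell can hold more than one of these messages.

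The NON-EC cells numbered 305 in WT replicate 1, 188 in WT replicate 2, 13 in APC-KO replicate 1 and 217 in APC-KO replicate 2. APC-KO replicate 1 stood apart from the other libraries, since the authors kept 356 cells of it against 3821 to 6243 elsewhere, and results that rest on it are given with and without it. Its 13 NON-EC cells were also deeper, with a median of 5727 UMIs (unique molecular identifiers, 1 per captured mRNA) and 4.91% mitochondrial UMIs, against medians of 2406 to 3534 UMIs and 2.61% to 2.87% in the other 3 libraries. Summed over cells, NON-EC held 1055307, 687892, 70025 and 630760 UMIs in the first and the second WT library and the first and the second APC-KO library, and lists of 4 library values below keep this order. No NON-EC barcode occurred in more than 1 library. Levels are given as CPM, the UMIs of a gene summed over the cells of a type in a library and scaled to a fixed total per sum.

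The name fitted the defining genes. Isl1, a LIM-homeodomain factor of peptide-hormone cells on chromosome 13 (116298281 to 116309689, GRCm38), was found in 92.7% of NON-EC cells, against 3.75% of EC (enterochromaffin) cells and 7.20% of EEC-PRE (endocrine precursor) cells, with median depths of 3176, 3031 and 3448 UMIs. In the other 9 types its level stayed at or below 6.36 CPM. Isl1 stood at 1503, 1537, 1742 and 1135 CPM in the 4 NON-EC libraries, so each of them carried it. Tph1, the serotonin-synthesis enzyme that defines enterochromaffin cells, had a UMI in 1.80% of NON-EC and 76.2% of EC cells. The 10 enterochromaffin markers together made up 2774, 2955, 2228 and 2071 CPM in NON-EC against 13440 to 18060 CPM in EC. Markers of other lineages were also present: the summed goblet list was at 11070, 8224, 4470 and 24590 CPM in NON-EC, against 383800 to 451400 CPM in GOBLET cells, and the Paneth list at 3045, 3364, 914 and 5460 CPM. None of the 8 tuft markers passed the filter for testing in the comparison with EC, and their sum was at most 43.6 CPM. The goblet and Paneth sums were highest in APC-KO replicate 2, and beyond the values given below their part in the results was not tested.

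Of 25 gut hormones and neuropeptides listed, Ghrl marked the most NON-EC cells at the line of 5 UMIs. Counting any UMI, Sct came first, in 519 cells (71.8%) against 409 (56.6%) for Ghrl. In APC-KO replicate 1 Sct led at 5 UMIs too, with 69.2% of cells against 38.5%. Calling a cell positive at 5 or more UMIs, Ghrl marked 312 of 723 cells (43.2%, exact 95% binomial interval 39.5% to 46.9%), Sct 240 (33.2%, 29.8% to 36.8%), Cck 202 (27.9%, 24.7% to 31.4%) and Gip 97 (13.4%, 11.0% to 16.1%). Gcg marked 34 cells (4.70%, 3.28% to 6.51%) and Sst 28 (3.87%, 2.59% to 5.55%). Tac1, the tachykinin gene typical of enterochromaffin cells, marked 13. All such intervals cover counting error only. Not a single UMI was seen for Insl5, Vip, Npy, Penk, Npw, Pdyn, Grp or Ppy in these cells. The 5-UMI line cut through few cells for Gip, with 10 cells at 3 or 4 UMIs and 5 at 5 to 7, whereas for Sct 91 cells lay just under it and 70 just over it. Positive cells were loaded with their hormone: the median was 77.5 UMIs for Ghrl (highest 1858), 76.5 for Sst (832), 63 for Gip (656), 39 for Gcg (179), 37 for Cck (408) and 10 for Sct (153).

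Ghrl, whose acylated product is the hunger hormone, stood at 18810, 11960, 3285 and 17760 CPM in the 4 libraries. APC-KO replicate 1 was the low one. Cck, released on fat and protein to contract the gallbladder, was at 5888, 5975, 7626 and 3789 CPM, and Gip, an incretin of the proximal gut, at 5420, 3855, 4998 and 4910 CPM. Neither of these separated the genotypes. Sct was at 2705, 1319, 2728 and 1262 CPM and Gcg at 788, 683, 900 and 507 CPM. Sst, the paracrine brake on other endocrine cells, was at 637, 1425, 23180 and 1584 CPM. The outlying 23180 CPM came from 3 cells, and the highest of them held 51.3% of that library's Sst UMIs (832, or 12.9% of the 6466 UMIs of the cell). Scrublet, a doublet caller, marked that cell and no other NON-EC cell.

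**Figure D1:**
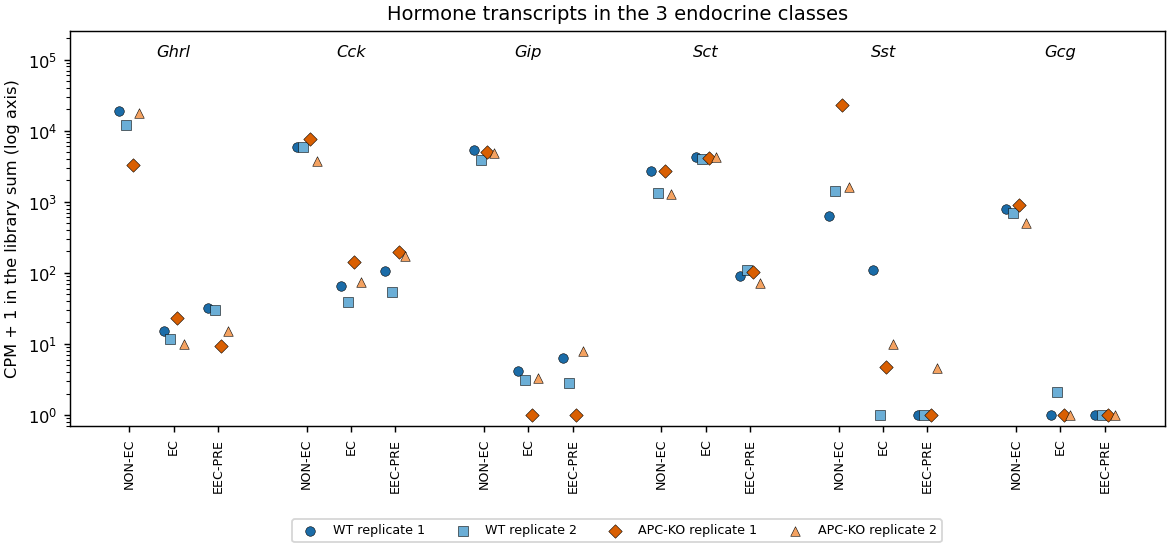
Level (CPM + 1, log axis) of Ghrl, Cck, Gip, Sct, Sst and Gcg in each of the 4 libraries, for NON-EC, EC and EEC-PRE cells. Ghrl, Cck, Gip and Gcg lie far above EC and EEC-PRE in every library, Sct reaches its highest levels in EC, and APC-KO replicate 1 is low for Ghrl and high for Sst.

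The 4 hormones Ghrl, Cck, Gip and Gcg were nearly confined to NON-EC among the 12 types. No EC cell was positive for Ghrl, Gip or Gcg, and 0.790% were positive for Cck. In EEC-PRE 2.58% of cells were positive for Cck and 0.369% for Ghrl. In CPM over all libraries, Ghrl was at 16170 in NON-EC against 12.6 in EC and 24.1 in EEC-PRE, and Gip at 4836 against 2.40 and 4.53. Secretin was the exception, with 31.0% of EC cells positive and an EC level of 4165 CPM against 1943 CPM in NON-EC. Barcodes with 1 to 50 UMIs, which stand for RNA free in the suspension, carried 166 to 370 CPM of Ghrl and 137 to 279 CPM of Sct, so a background of single UMIs exists in every type.

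The promoters of the hormone genes are shown because homeodomain and basic helix-loop-helix factors, compared below, bind motifs of such kinds. The windows are the 250 bases before the start given by RefSeq on GRCm38.p6, and all 6 hormone genes were matched. Capitals mark motif matches on either strand, and no match overlapped another. The motif TAATNA is a core read by homeodomain factors. The second motif, GATAAG, is read by zinc-finger factors of the GATA family. An E-box of the kind read by basic helix-loop-helix factors has the letters CAGATG. The cyclic-AMP response element was searched as TGACGTCA. The windows of Gip (chr11:96024295-96024544, plus strand), Cck (chr9:121495695-121495944, minus strand) and Gcg (chr2:62483654-62483903, minus strand) read as follows.
Gip: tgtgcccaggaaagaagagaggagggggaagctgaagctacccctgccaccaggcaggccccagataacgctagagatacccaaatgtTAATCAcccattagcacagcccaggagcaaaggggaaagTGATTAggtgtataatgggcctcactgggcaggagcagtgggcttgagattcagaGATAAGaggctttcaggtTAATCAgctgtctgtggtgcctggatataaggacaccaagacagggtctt
Cck: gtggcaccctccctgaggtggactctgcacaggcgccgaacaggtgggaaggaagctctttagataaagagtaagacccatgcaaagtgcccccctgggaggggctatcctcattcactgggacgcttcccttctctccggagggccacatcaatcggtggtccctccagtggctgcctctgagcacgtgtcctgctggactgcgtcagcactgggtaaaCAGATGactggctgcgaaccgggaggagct
Gcg: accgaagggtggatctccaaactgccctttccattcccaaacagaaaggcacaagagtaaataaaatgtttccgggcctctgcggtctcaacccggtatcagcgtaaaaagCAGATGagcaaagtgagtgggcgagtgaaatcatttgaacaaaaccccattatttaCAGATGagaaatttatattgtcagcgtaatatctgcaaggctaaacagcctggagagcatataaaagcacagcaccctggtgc

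The Gip window held TAATNA at 162, 123 and 50 bases before the start and GATAAG at 68 bases. The Cck window held 1 CAGATG at 30 bases before the start, and the Gcg window held 2, at 139 and 83 bases. The Sst window held TGACGTCA at 48 bases, the Sct window CAGATG at 242 bases, and the 4 alternative windows of Ghrl held none of the 4 motifs. Among 32851 windows of the same length, TAATNA occurred in 24.3%, CAGATG in 14.4%, GATAAG in 6.55% and TGACGTCA in 1.55%, so the Sst match is to the least common of the 4 motifs. The RefSeq start of Sst lies inside the gene as GENCODE draws it, so its match lies within the GENCODE gene and not before it, and some of the Ghrl windows overlap the GENCODE gene too. These are letter matches only.

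The next question was which hormones occur together in one cell. All 25 listed hormones were counted. At 5 UMIs 181 NON-EC cells (25.0%) held none, 292 (40.4%) held 1 and 144 (19.9%) held 2. Another 75 (10.4%) held 3, 29 (4.01%) held 4 and 2 cells held 5. At least 2 were held by 250 cells (34.6%, 31.1% to 38.2%), and by 44.6%, 29.3%, 69.2% and 23.0% of cells in the 4 libraries. Leaving out APC-KO replicate 1 gave 33.9%. Median depth was 2902 UMIs in cells with none and 3682 in cells with 4. With a line at 20 UMIs the share was 13.7%. For the 6 main hormones, 34.2% of NON-EC cells held 2 or more, against 0.296% of EC cells, none of 542 EEC-PRE cells and at most 0.336% of any other type.

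The most frequent patterns over the 6 hormones were Ghrl alone in 214 cells (29.6%), none in 186 (25.7%), Cck with Sct in 53, and Gip with Cck and Sct in 43. Ghrl with Sct was seen in 28 cells, Gip with Sct in 26, Sct alone in 25, Cck alone in 24, and Cck with Gcg, Ghrl and Sct in 23. Gip alone was seen in 16 cells and Sst alone in 11. At this line Ghrl was the only one of the 6 in 214 of its 312 cells, while most Cck and Gip cells also held Sct. That company rests on the line, since at 20 UMIs 25.9% of Cck cells and 37.7% of Gip cells held Sct, and in APC-KO replicate 2 it was 14 of 29 Gip cells at 5 UMIs.

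Every Gcg cell was a Cck cell. All 34 Gcg-positive cells were positive for Cck (100%, 89.7% to 100%), against 24.4% of the other 689 cells. This held in each library, with 18 of 18, 9 of 9, 1 of 1 and 6 of 6 cells, and at a line of 20 UMIs, with 23 of 23 cells. Of these Gcg cells 30 (88.2%) were also positive for Sct, against 30.5% of the rest, and 26 (76.5%) for Ghrl, against 41.5%. At the stricter line both shares were lower, with Sct in 26.1% against 7.71% and Ghrl in 39.1% against 33.4%. Read from the other side, 16.8% of Cck cells were Gcg cells and none of the 521 Cck-negative cells was.

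Gip and Ghrl were found together in very few cells. Of 97 Gip cells, 3 (3.09%, 0.642% to 8.77%) were positive for Ghrl, against 49.4% of the other cells, and all 3 came from WT replicate 1. At 20 UMIs the values were 2.60% and 37.3%, and with every cell thinned to 2000 UMIs and a line of 2 UMIs they were 5.50% and 56.6%. The 3 cells held 28 to 41 UMIs of Gip and 14 to 94 of Ghrl, so both messages were well above the line. All 3 were also positive for Cck and Sct, and beyond Scrublet's calls it was not tested whether they were doublets. Gip cells more often held Cck (55.7% against 23.6% of other cells, and 29.9% against 17.3% at 20 UMIs) and Sct (76.3% against 26.5%, and 37.7% against 4.80% at 20 UMIs).

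Cck and Sct went together in 148 of 202 Cck cells (73.3%), against 17.7% of Cck-negative cells, and at 20 UMIs in 25.9% against 4.25%. Ghrl cells held Sct in 23.7% of cases, below the 40.4% of Ghrl-negative cells. Cck cells held Ghrl in 32.7% against 47.2%, with medians of 42 UMIs of Cck and 30 of Ghrl in the doubly positive cells. Of 28 Sst cells 15 held Sct (53.6% against 32.4% of other cells), but at 20 UMIs 1 of 22 did (4.55% against 8.42%). Of the 28, 5 held Ghrl, 2 held Cck, 1 held Gip and none held Gcg. These are shares over cells pooled from 4 libraries, 15 pairs in all, and carry no test.

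**Figure D2:**
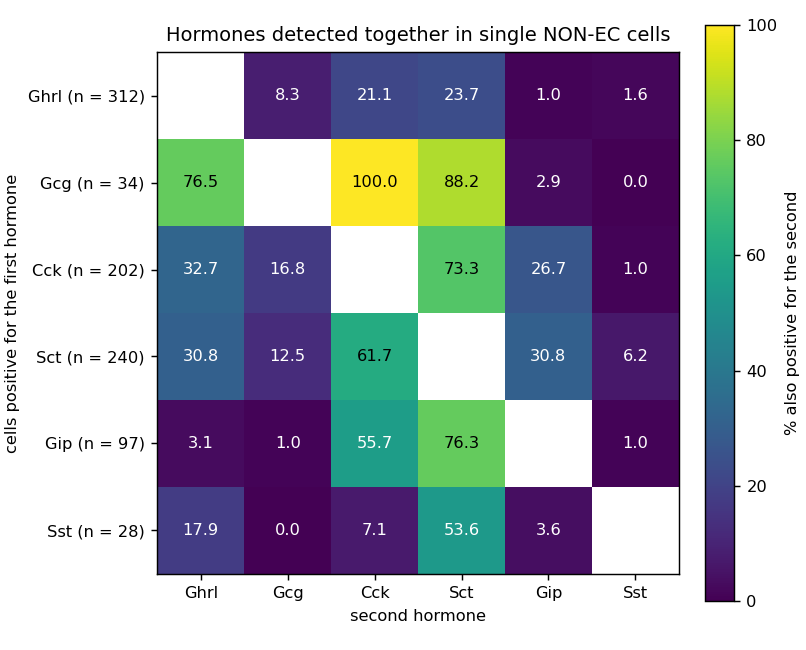
Share of the cells positive for the row hormone (number in brackets, at 5 or more UMIs) that were also positive for the column hormone, over NON-EC cells of all 4 libraries. The Gcg row reaches 100% under Cck, and the Gip row is at 3.09% under Ghrl.

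The comparison with EC asked how the peptide branch differs from the serotonin branch. Library sums of the 2 types were compared with edgeR's quasi-likelihood test. Since the authors' names of the types may rest on these same counts, the calls show only how alike the libraries were and are given as a description. Of 8442 genes, 676 (8.01%) were called higher in NON-EC and 767 (9.09%) lower, 17.1% in all, at a Benjamini-Hochberg adjusted p of 0.05. The hormones Gip, Gcg, Ghrl, Cck and Sst and the factor Isl1 were higher in NON-EC, the serotonin machinery and the hormones Sct, Tac1, Cartpt and Ucn3 were higher in EC, and the granins were split.

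Among secreted peptides, Gip was higher in NON-EC by 10.79 ± 0.20 (log2 ± SE), Ghrl by 10.11 ± 0.21, Cck by 6.23 ± 0.16 and Sst by 5.74 ± 0.37. Gcg differed most in CPM terms by its near absence from EC, at 689 CPM against 0.299 CPM from a single UMI, a ratio of 2303 with a counting interval of 413 to 90999. Sct and Tac1 were lower in NON-EC, at −1.27 ± 0.12 and −5.59. On the EC side Tph1 was at 40.8, 2.91, 14.3 and 9.51 CPM in the NON-EC libraries against 2089, 1866, 1724 and 1408 in EC, −6.58 ± 0.18. Slc18a1 and Slc18a2, which load serotonin into vesicles, were at −2.60 and −5.36. All 10 enterochromaffin markers tested were called lower, beside 9.09% of all genes.

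Of 34 transcription factors tested, 15 were called higher and 11 lower, beside 8.01% and 9.09% of all genes. The list median was 0.02 against −0.002 over all genes. Isl1 was 5.17 ± 0.13 higher. Hhex (61.4 against 7.49 CPM, 3.06), Onecut3 (63.0 against 7.79, 2.84), Etv1 (119 against 17.4, 2.66), Prox1 (1.89), Pax6 (1.70) and Pdx1 (1.66) were also higher. Lmx1a, a factor of serotonin-making cells, was at 3.68 CPM against 206 (−5.81), and Mnx1 at 6.55 against 76.1 (−3.57). Neurog3 was at 330 CPM against 605 (−0.999), with Fev (−1.08) and Pax4 (−1.07) lower as well.

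The secretory apparatus was split rather than shared. Of 13 granins and processing enzymes, 5 were called higher and 6 lower, beside 8.01% and 9.09% of all genes. Secretagogin (Scgn, a calcium sensor) was at 939 CPM against 27.0, or 5.03 ± 0.13, and secretogranin II (Scg2) at 149 against 1.20, or 6.63 ± 0.31. The peptide-maturing enzymes Cpe (834 against 424 CPM, 0.89) and Pam (520 against 286 CPM, 0.76) were higher too. Chromogranins went the other way: Chgb was at 7466 CPM against 56430 (−3.07 ± 0.13) and Chga at 1426 against 7273 (−2.51 ± 0.12), with Ptprn (−2.93), Vgf (−2.81) and the prohormone convertase Pcsk1 (−1.03) lower. In the exocytosis list of 30, 5 were higher and 12 lower, beside the same shares of all genes.

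Of 45 listed receptors and channels for nutrients and signals, 16 were tested against EC. Among these 8 were called higher and 5 lower (list median 0.88), beside 8.01% and 9.09% of all genes. Ffar1, Avpr1b and Cnr1, nearly absent from EC, could pass the filter for testing only through NON-EC, so their direction was set by the filter. Ffar1, the long-chain fatty acid receptor, was at 88.1, 74.1, 57.1 and 60.2 CPM in the 4 NON-EC libraries. EC held 2 UMIs of it in all, a ratio of 127 (34.7 to 1057). Abcc8 and Kcnj11, the subunits of the ATP-sensitive potassium channel, were 5.13 and 5.29 higher, and the glucose carrier Slc5a1 2.34 higher, at 139 against 25.5 CPM. The vasopressin receptor Avpr1b (54.0 CPM against 1 EC UMI, ratio 180, 31.8 to 7178), the cannabinoid receptor Cnr1 (35.6 against 0.299 CPM, 6.10) and the membrane oestrogen receptor Gper1 (3.76) were higher as well. The irritant channel Trpa1, known from enterochromaffin cells, was at 3.68 CPM against 290 (−6.30).

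The remaining genes with the largest differences were of mixed kinds. Fxyd2, a regulatory subunit of the sodium pump, was at 93.8, 65.4, 14.3 and 92.0 CPM in NON-EC and at 0 UMIs in EC, at least 92.5-fold higher against a floor of 3 counts over the group. Phospholipase B (Plb1) was at 103.9 CPM against 2 EC UMIs, a ratio of 174 (47.6 to 1441). On the other side the cation channel Trpc7 had no UMI in NON-EC against 48.5 CPM, at least 39.5-fold lower. The protease Pappa2 (0.409 against 113 CPM, 276-fold lower, 49.2 to 10926), Fmo2, Slc38a11 and Dusp2 each had 1 or 2 UMIs in NON-EC. Afp was at 15.1 CPM against 1817 (−6.87 ± 0.20), Tpbg at 1.64 against 181 (−6.70) and Reg4, a lectin of endocrine and goblet cells, at 69.6 against 5206 (−6.36).

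Of 9 BMP genes 6 were called, 2 higher and 4 lower, beside 17.1% of all genes. The BMP targets Id1 (25.4 against 189 CPM, −2.97), Id3 (−2.39) and Id2 (−1.59) were lower and Bambi, a decoy receptor of the same family, was higher (75.3 against 8.98 CPM, 2.95). Of 9 Wnt targets 4 were higher, beside 8.01% of all genes, and none lower (median 0.36), among them Axin2 (75.3 against 43.4 CPM, 0.71), Ephb3 (0.999) and Ephb2 (0.66). Of 8 goblet genes 4 were higher (Clca1, Zg16, Tff3 and Fcgbp), again beside 8.01% of all genes. The goblet sum was higher in NON-EC than in EC in all 4 libraries, where EC held 7838, 5572, 4322 and 15230 CPM. With the 10% of cells richest in other-lineage markers left out, the differences of Itln1 and Zg16 turned to −0.18 and −0.018. Of 6 stress genes 5 were lower (Fos −0.98, Jun −0.91), beside 9.09% of all genes.

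**Figure D3:**
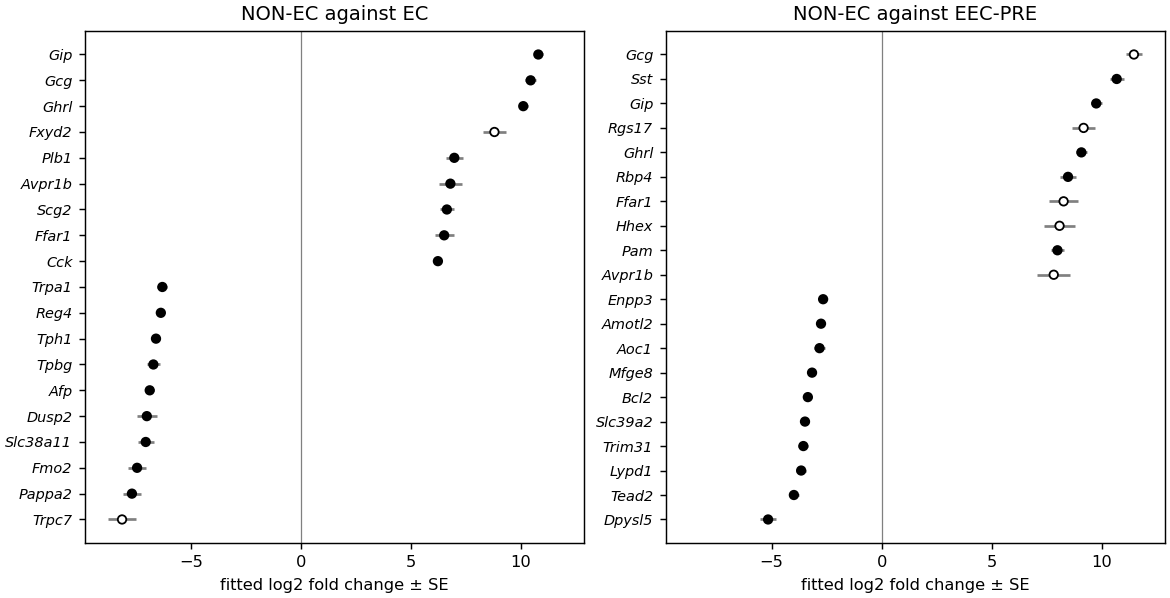
Log2 difference ± SE of the reported genes highest and lowest in NON-EC against EC (left) and against EEC-PRE (right), from edgeR fits over 4 libraries of each type. Open circles mark genes with 0 counts in one type, whose fitted value is no bound; Gip, Ghrl and Gcg are among the highest in both panels, with Sst second against EEC-PRE, and Tph1 is among the lowest against EC.

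Against EEC-PRE, the precursors of both branches, far more genes differed. Of 7263 genes, 1430 (19.7%) were called higher in NON-EC and 1565 (21.5%) lower, 41.2% in all, again as a description. NON-EC held the hormones and the secretory apparatus, and the precursors held Neurog3 and Sox4.

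All 11 granins and processing enzymes tested were called higher in NON-EC, beside 19.7% of all genes. The list median was 5.96 against −0.01 over all genes. Pam, which amidates peptides, differed most, at 520 CPM against 3 UMIs, a ratio of 345 (118 to 1673), and Scg2 came next. Scgn (7.25), Scg3 (6.55), Cpe (5.96), Chgb (4.63) and Chga (2.96) were between these and Pcsk1, which was 0.62 higher. Of 21 exocytosis genes 17 were higher and 2 lower, beside 19.7% and 21.5% of all genes. Of 45 listed receptors and channels 10 were tested, of which 9 were higher and none lower. Ffar1 and Avpr1b among them could pass the filter only through NON-EC, so their direction was set by it. Ffar1 had no UMI in EEC-PRE, at least 50.5-fold lower than in NON-EC, and the same held for Rgs17, a regulator of G-protein signalling (at least 94.95-fold), and Avpr1b (at least 35.8-fold). Gcg had no EEC-PRE UMI (at least 457-fold) and Sst had 2 (ratio 1739, 481 to 14366). The retinol carrier Rbp4 had 1 (ratio 572, 102 to 22631).

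Of 31 transcription factors 14 were higher and 8 lower, beside 19.7% and 21.5% of all genes. Pax6, a paired-box factor that binds hormone promoters, was at 324 CPM against 1.51 (7.33), Etv1 was 5.49 higher, Isl1 4.68 ± 0.16 and Pdx1 3.16. Hhex had no UMI in EEC-PRE, at least 40.7-fold lower. Neurog3 was at 363, 326, 171 and 298 CPM in NON-EC against 1915, 1631, 2170 and 1275 CPM in EEC-PRE (−2.66 ± 0.13), so the ranges did not meet. Sox4 (781 against 3400 CPM, −2.41), Neurod2 (−1.22) and Insm1 (−1.06) were lower. Of the 7 precursor genes 6 were lower and Neurod1 was 0.48 higher.

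Some genes of cell division and of Notch signalling lay on the precursor side, beside 21.5% of all genes. Of 7 proliferation genes 4 were lower, and of 6 Notch genes 3 (Lfng −2.39, Dll1 −2.32, Hes6 −1.18), with none higher. The largest differences to the precursor side were Dpysl5, a neuronal cytoskeleton regulator (2.46 against 80.9 CPM, −5.16 ± 0.37), the Hippo effector Tead2 (10.2 against 139 CPM, −3.99), Lypd1 (−3.66), Trim31 (−3.56), the zinc carrier Slc39a2 (−3.49) and the survival factor Bcl2 (−3.36). Mfge8 (−3.17), the diamine oxidase Aoc1 (−2.82), Amotl2 (−2.76) and Enpp3 (−2.66) followed. Of 8 Wnt targets 3 were higher (Cd44 3.75, Ephb2 1.28, Ephb3 0.81), beside 19.7% of all genes. Apc itself was 0.46 ± 0.15 higher against EEC-PRE and 0.19 ± 0.12 against EC.

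NON-EC cells were then sorted by the hormone with the most UMIs among those at 5 or more. Ghrl led in 266 cells, Cck in 125, Gip in 71, Sct in 40, Sst in 25, Gcg in 6 and Tac1 in 6, 3 were tied, and 181 held no hormone. Hormone genes chose these groups, so their own differences between the groups are not described. Sums of the Ghrl-, Cck- and Gip-led cells were compared, each against the mean of the other 2, over WT replicates 1 and 2 and APC-KO replicate 2. APC-KO replicate 1 had at most 4 cells of any group and gave no sum. Library values in the next 3 paragraphs are in the order WT replicate 1, WT replicate 2, APC-KO replicate 2, and the CPM after "against" is pooled over the other 2 groups.

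Ghrl-led cells differed most. Of 2942 genes tested, 275 (9.35%) were higher and 281 (9.55%) lower, 18.9% in all, by edgeR's quasi-likelihood test. Acsl1, which activates long-chain fatty acids, was at 1165, 1566 and 1040 CPM, against 29.7 CPM over the other groups (5.45 ± 0.22). Mboat4, the acyltransferase that attaches a fatty acid to ghrelin, was at 272, 242 and 179 CPM in Ghrl-led cells against 0 to 133 CPM in the 6 other sums (3.18 ± 0.33, adjusted p = 1.65e-07). In single cells, 51.5% of Ghrl-led cells had a UMI of Mboat4, against 24.0% of Cck-led, 2.82% of Gip-led and 22.1% of hormone-negative cells, with median depths of 3234, 3291, 3283 and 2902 UMIs. Fxyd2 (221, 169 and 292 CPM against 7.42, 6.27 ± 0.46), Plb1 (5.83 ± 0.42) and the zinc-finger gene Zcchc12 (228, 215 and 195 CPM against 25.2, 5.33 ± 0.44) were also higher. Ooep, first known from oocytes, was at 702, 910 and 87.1 CPM against 7.42 (6.14 ± 0.31), lower by far in the APC-KO library. Cdkn1a, the cell-cycle inhibitor p21, rose by 1.77 ± 0.13.

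Of 25 transcription factors 13 were higher in Ghrl-led cells and 4 lower, beside 9.35% and 9.55% of all genes. All 5 precursor genes tested were higher. Neurog3 was at 448 CPM against 72.7 (2.60 ± 0.25), Sox4 at 1140 against 356 (1.69), and Neurod2 (2.67), Prox1 (1.91), Nkx2-2 (1.58) and Tox3 (1.56) rose too. Pdx1 (−2.50), Pax6 (−1.69), Rfx6 (−1.01) and Fev (−0.87) fell. The granins were split: Chga was at 2149 CPM against 696 (1.97), whereas Chgb was at 1042 against 12154 (−3.77) and Scg2 fell by 2.18. Of 9 receptors and channels, 2 rose and 7 fell. The short-chain fatty acid receptor Ffar2 rose (356 against 96.5 CPM, 2.41), as did Avpr1b (3.97), and Ffar1 fell (27.1 against 197 CPM, −2.71). Fabp5, a fatty acid carrier on chromosome 3 (10012548 to 10016607), was at 83.7, 30.7 and 15.4 CPM against 3873 (−6.17 ± 0.28). Pkib, an inhibitor of protein kinase A, had no UMI (at least 21.5-fold lower). Of the enterocyte list all 5 genes tested fell, among them the retinol carrier Rbp2 (−4.16).

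Gip-led cells had 174 genes higher (5.91%) and 101 lower (3.43%), 9.35% in all. Fabp5 was at 7773, 8542 and 5523 CPM against 582 (4.78 ± 0.19), and Rbp2 at 2167, 2280 and 835 CPM against 156 (3.81 ± 0.15). Both carry small lipids, and Rbp4 was also higher (3.001 ± 0.24). Pkib (196, 141 and 99.7 CPM against 6.93, 5.28 ± 0.67), Cnr1 (237 against 11.6 CPM, 4.61 ± 0.40) and the kinase-anchoring gene Sphkap (402 against 51.6 CPM, 4.26) rose. Pdx1, which is needed for Gip expression (107 against 35.4 CPM, 1.66), Rfx6 (470 against 183, 1.35) and Pax6 (0.86) were the 3 of 25 factors that rose. Another 9 fell, among them Prox1 (−2.19), Tox3 (−1.95), Etv1 (−1.71) and Nkx2-2 (−1.62). The Gip promoter shown above holds 3 matches of the homeodomain core TAATNA, which occurred in 24.35% of all windows. Whether Pdx1 or any other factor binds there was not tested. Chgb was at 16053 CPM against 3788 (2.63) and Chga at 360 against 1755 (−1.96), the reverse of the Ghrl-led cells. Zcchc12 (at least 14.0-fold lower), Plb1 (at least 15.04-fold), Fxyd2 (at least 13.5-fold) and Onecut3 (at least 9.67-fold) had no UMI. Mboat4 was at 0, 17.1 and 0 CPM. Of 7 goblet genes 5 also rose (Zg16 7057 against 2984 CPM, Muc2 1098 against 552 CPM) and none fell, and how far goblet RNA enters the Gip-led calls was not tested.

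Cck-led cells had the fewest calls, 58 genes higher (1.97%) and 26 lower (0.884%), 2.86% in all. Onecut3, a cut-homeobox factor on chromosome 10 (80494835 to 80517276), was at 312, 348 and 164 CPM against 24.4 (5.82 ± 0.43). Etv1, an ETS factor, was at 327 CPM against 103.7 (1.97). Pax6 (0.83), Fev (0.75) and Mlxipl (0.73) made up the 5 of 25 factors that rose, and Neurog3 (50.9 against 371 CPM, −2.13), Sox4 (−1.20) and Myt1 (−1.11) fell. Ffar1 (240 against 50.6 CPM, 1.96) and the orphan receptor Adgrg4 (153 against 36.6 CPM, 2.33) were the 2 of 9 receptors that rose. Both Rgs2 (150 against 21.8 CPM, 2.43) and Gnai1 (2.51), which act downstream of G-protein-coupled receptors, were higher, as was Parm1 (2.53). Scg2 (1.48), Chgb (1.14) and Cpe (0.59) were the 3 of 10 granins that rose. Acsl1 (−2.39), Tes (−1.54), Ddr1 (−1.45) and Phlda1 (−1.33) were, with Neurog3, the largest reported falls. Pooled, Acsl1 was at 1255.5 CPM in Ghrl-led cells, 33.9 in Cck-led cells and 29.7 over Cck- and Gip-led cells together. Its fall was thus against Ghrl-led cells and not against Gip-led cells.

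Sst-led cells numbered at most 9 in any library, too few for a sum, and cells with no hormone were not among the groups fitted, so pooled levels are given for both with no test. In 25 Sst-led cells, Hhex, a homeobox factor of D cells, was at 880 CPM, against 0 in Ghrl- and Cck-led cells and 26.1 in Gip-led cells. Ffar1 had no UMI there, Rbp4 was at 1160 CPM and Pdx1 at 204. The 181 cells with no hormone at 5 UMIs held Isl1 (1219 CPM), Neurog3 (609 CPM), Sox4 (937), Ooep (683) and Chga (1554), and no UMI of Scg2. Their median depth was 2902 UMIs against 3234 in Ghrl-led cells, a small gap. Among the 40 Sct-led cells Chgb stood at 18110 CPM and Fabp5 at 3569.

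**Figure D4:**
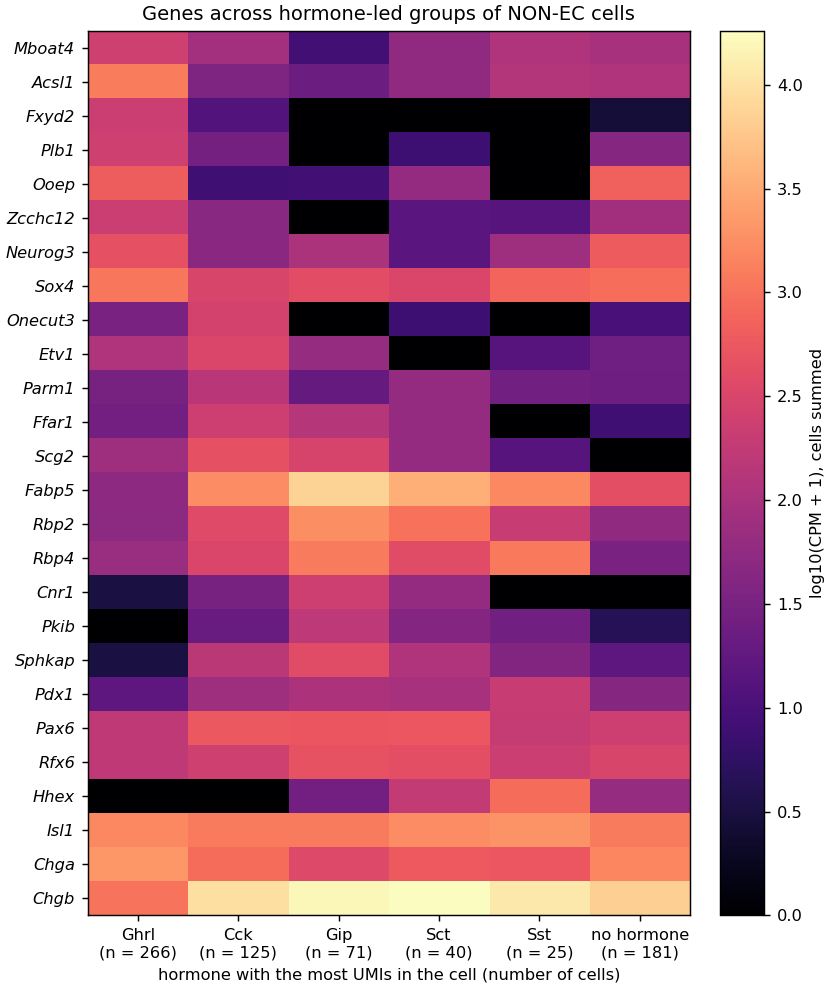
Pooled level (log10 of CPM + 1) of 26 genes in NON-EC cells grouped by leading hormone, with the number of cells under each column. Mboat4, Acsl1 and Fxyd2 mark the Ghrl column, Onecut3 the Cck column, Pkib and Cnr1 the Gip column and Hhex the Sst column, and the column with no hormone is high in Neurog3 and Ooep.

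The last comparison asked what differed in these cells when Apc was deleted. Apc restrains Wnt signalling by holding down beta-catenin. NON-EC cells made up 6.34% and 4.92% of kept cells in WT and 3.65% and 3.48% in APC-KO, 5.63% ± 1.00 against 3.56% ± 0.124 (SD, n = 2 each). The groups did not overlap, and the two-sided exact permutation p was 0.333, the smallest that 2 against 2 allows. Among endocrine cells the shares were 34.2% and 32.0% against 17.8% and 29.9%, a difference of −9.21 percentage points that shrank to −3.15 without APC-KO replicate 1. Kept cells depend on the sort and on which cells the authors named.

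The make-up by hormone did not separate beyond that limit either. Ghrl-positive cells were 47.5% and 44.1% of NON-EC in WT and 38.5% and 36.4% in APC-KO, a difference of −8.41 points, and −9.44 without APC-KO replicate 1. Gip was at 13.02% ± 3.37 against 10.5% ± 4.01 and Gcg at 5.34% ± 0.788 against 5.23% ± 3.48. For Sst the shares were 2.97% ± 0.438 against 13.8% ± 13.1, and the difference fell to 1.64 points without APC-KO replicate 1. The sign of the Sct difference turned with that library, from 36.7% ± 9.77 against 44.3% ± 35.3 to −17.3 points without it, and so did Cck, from 29.1% ± 4.29 against 34.4% ± 16.7 to −6.52 points. Over the 7 hormones tested, those positive in at least 10 cells, the exact permutation p was 0.333 or more and the adjusted p 0.778 or more.

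In all, 9 of 7959 genes (0.113%) were called between genotypes by edgeR's quasi-likelihood test, 5 higher in APC-KO (0.0628%) and 4 lower (0.0503%), and 708 had an unadjusted p under 0.05. Groups did not overlap for any of the 9, and the same was true of 3126 of all genes tested. Hdc, the enzyme that makes histamine, was at 6.63 and 1.45 CPM in the WT pair and 143 and 90.4 in the APC-KO pair (4.44 ± 0.46, adjusted p = 0.0007). In APC-KO its UMIs came from 1 cell of replicate 1, led by Sst, and from 13 cells of replicate 2. Of these 13 cells, 6 were Cck-led, 3 held no hormone, 2 were Ghrl-led and 1 each Sct- and Sst-led. Few cells held most of the 57 UMIs of replicate 2. The Sst-led cell held 15, the highest hormone-negative cell 11 and the highest Ghrl-led cell 7, and the 6 Cck-led cells held 12 together. The cell of APC-KO replicate 1, with 10 UMIs of Hdc, is the one that Scrublet marked as a doublet. With it left out that library held no Hdc and the gene was not tested, and without the whole library the difference was 4.35 ± 0.43 (adjusted p = 1.72e-20), with the lone APC-KO library assumed to vary like the WT pair. In EC cells Hdc was at 1.60 and 1.07 against 7.32 and 5.69 CPM, and free RNA held at most 3.05 CPM of it.

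Ooep, which marked Ghrl-led and hormone-negative cells above, was at 416 and 704 CPM in the WT pair against 171 and 52.3 in the APC-KO pair (−2.87 ± 0.40, adjusted p = 0.00856). Within Ghrl-led cells alone it was at 702 and 910 against 811 and 87.1 CPM, where the value of 811 rests on 3 cells, and within hormone-negative cells at 669 and 1321 against 0 and 76.9 CPM. EEC-PRE cells had 221 and 295 against 109 and 8.74 CPM. APC-KO replicate 2 was thus the lowest library in Ghrl-led cells and in precursors. Zfp36, which destabilises AU-rich mRNAs, was at 253 and 314 against 143 and 77.7 CPM (−1.60 ± 0.26, adjusted p = 0.0344). In EC it was at 274 and 323 against 315 and 106 CPM. EEC-PRE cells held 72.7 and 46.8 against 50.5 and 26.2 CPM of it, so APC-KO replicate 2 was the lowest library in these types too. The intermediate filament Vim was at 86.2 and 82.9 against 14.3 and 19.0 CPM (−2.10 ± 0.36, adjusted p = 0.0353). Its level in EC was far higher, at 1998 and 2171 against 1775 and 1046 CPM. Rfc3, a clamp loader of DNA replication, was at 25.6 and 23.3 against 57.1 and 88.8 CPM (1.85 ± 0.32, adjusted p = 0.0353).

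The other 4 are genes of Paneth, goblet or enterocyte cells, and their free-RNA levels are given beside them. Defa29, a Paneth defensin, was at 12.3 and 21.8 against 28.6 and 277 CPM (3.89 ± 0.46, adjusted p = 0.00147), with free RNA at 316 and 454 against 590 and 1146 CPM and PANETH cells at 5097 and 3335 against 19680 and 25140 CPM. Of its 175 UMIs in APC-KO replicate 2, the highest Ghrl-led cell held 59 and the highest Cck-led cell 36. APC-KO replicate 1 held 2 UMIs of it, and without APC-KO replicate 2 the difference was 0.779. The gene model Gm14851, named here after its values were seen, was at 120 and 182 against 14.3 and 1.59 CPM (−5.50 ± 0.59, adjusted p = 0.0007), with free RNA at 1902 and 3733 against 874 and 223 CPM and PANETH cells at 47450 and 46810 against 41450 and 442 CPM. Phgr1 was at 139 and 85.8 against 200 and 520 CPM (1.97 ± 0.32, adjusted p = 0.0344), with free RNA at 550 and 569 against 1036 and 1373 CPM. Dmbt1, a mucin-like scavenger protein, was at 67.3 and 53.8 against 85.7 and 198 CPM (1.61 ± 0.28, adjusted p = 0.0353), with free RNA at 676 and 550 against 456 and 978 CPM. With 5% free RNA subtracted, 7 of the 9 genes could be tested, all but Gm14851 and Defa29, and Hdc alone was still called. The differences of the other 6 were as large as before or nearly so (Phgr1 2.15, Dmbt1 2.22, Rfc3 1.93, Zfp36 −1.64, Vim −2.37 and Ooep −2.85), with adjusted p from 0.0657 to 0.155. Without the cell that Scrublet marked, 8 could be tested and Zfp36, Gm14851, Defa29 and Ooep were called. With the 10% of cells richest in goblet, Paneth, tuft and enterocyte markers left out, all 9 were still called.

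All 9 remained called without APC-KO replicate 1, where 344 of 8776 genes passed (246 higher, 98 lower) under the assumption that the lone APC-KO library varies like the WT pair. Without APC-KO replicate 2 only Hdc, Gm14851 and Ooep remained, without WT replicate 2 those and Defa29, and by DESeq2's Wald test Hdc, Gm14851 and Ooep. A simulation with known changes gave every gene and library the same dispersion (spread between libraries). In it this comparison recovered 7.22% of genes changed by 1 on the log2 scale and 71.3% of those changed by 2. Changes of the smaller size would thus mostly be missed at this depth. Recovery at the spread of the real libraries was not tested.

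**Figure D5:**
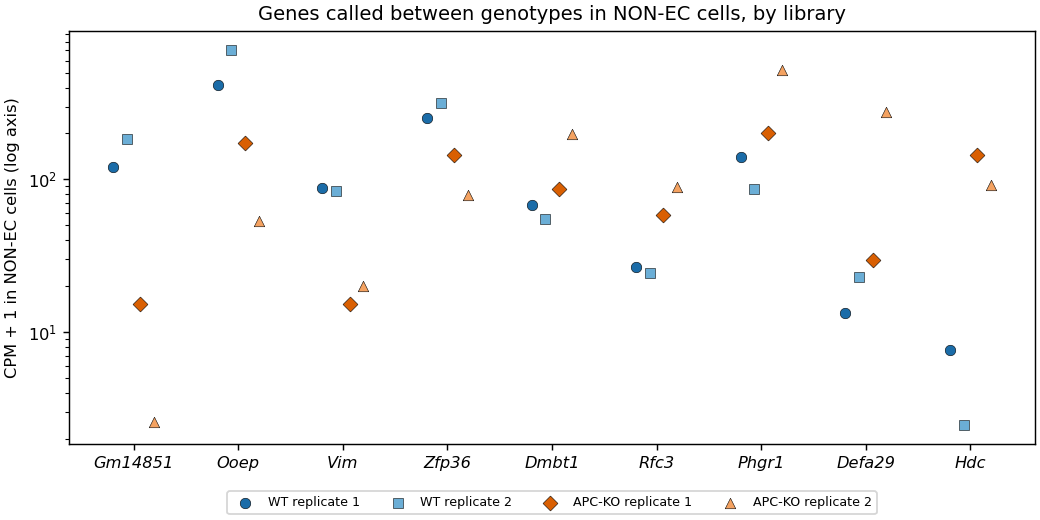
Level (CPM + 1, log axis) in the NON-EC cells of each library for the 9 genes called between genotypes. Hdc, Defa29, Phgr1, Rfc3 and Dmbt1 lie higher in both APC-KO libraries and Gm14851, Ooep, Vim and Zfp36 lower.

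No gene of the hormone, transcription factor, granin, receptor or signalling lists was called between genotypes. Apc, of which the conditional alleles lose 1 part only and which 3' counts need not report, was at 165 and 141 against 186 and 154 CPM (0.13 ± 0.22, adjusted p = 0.910), so it does not check the deletion here. The Wnt target Axin2, a direct readout of beta-catenin, was at 73.9 and 78.5 against 71.4 and 74.5 CPM. None of 9 Wnt targets tested passed, with a median of 0.09 against −0.01 over all genes, although Ephb3 was at 86.2 and 103 against 143 and 200 CPM (1.09, adjusted p = 0.102). Of the lineage genes, Isl1 differed by −0.06 and Chga by −0.22. Ghrl differed by −0.46 ± 0.56 and Sst by 3.59 ± 0.81 (adjusted p = 0.138), and Gip, Cck, Gcg and Sct by 0.14, −0.03, −0.11 and −0.02.

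A test of the interaction asked whether the genotype difference in NON-EC differed from that in EC. It was called for 11 of 9335 genes (0.118%). The ratio of APC-KO to WT was higher in NON-EC than in EC for 3 (0.0321%) and lower for 8 (0.0857%). Cdkn1a, at 2874 and 3740 CPM in the WT pair against 2142 and 1950 in the APC-KO pair, was 1 of the 8, since EC cells went from 355 and 324 to 790 and 507 CPM. No gene was called by DESeq2's Wald test, nor by edgeR without WT replicate 1.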

How the data were processed

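Single cells sorted from mouse duodenal crypts were sequenced in 4 libraries, 2 per genotype. Raw matrices of UMI counts over 31053 genes were deposited, made with Cell Ranger 3.0.2 and STAR on mm10 per the submitters' processing notes. The authors also deposited tables of kept cells with total counts, the percent of mitochondrial UMIs and a cell type name. How those names were set, and whether doublets were removed, is not given in the sources used here. Library totals ran from 54230249 to 61032126 UMIs, of which only the named cells were used.

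Counts were summed per type and library, for at least 10 cells, and tested with edgeR 4.0.16 (quasi-likelihood, TMM, filterByExpr, Benjamini-Hochberg 0.05) under R 4.3.3. DESeq2 1.42.0 was an alternative. Comparisons between types and between hormone-led groups had the library as a block. A hormone was positive in a cell at 5 UMIs, with 2 and 20 as alternatives. Free RNA was read from barcodes with 1 to 50 UMIs. Cells were thinned to 2000 UMIs as an alternative, which left out 0 to 45 NON-EC cells per library. Scrublet marked 18 of 15234 cells (0.118%), too few to have worked, so leaving out the 10% of cells richest in markers of other lineages was added after seeing the data. Intervals are exact Clopper-Pearson at 95%. Scripts were tested on simulated data. The cells, gene lists and tests were chosen with earlier results of these data known. Named genes are listed genes, the 10 largest rises and falls of each type comparison at 50 CPM or more and alike in every library, the 5 of each hormone-led group, and the called genotype genes at 20 CPM or more. A gene that these rules would name is not reported here. Promoter windows are from RefSeq and gene positions from GENCODE vM21.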

Additional observations from a re-analysis of the deposited data

Results flagged for a closer look

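In all, 11 of 9335 genes (0.118%) had a genotype difference in NON-EC that differed from the one in EC by a test of the interaction itself (edgeR's quasi-likelihood test, Benjamini-Hochberg adjusted), 3 in the direction of NON-EC (0.0321%) and 8 in that of EC (0.0857%). Each was picked out for that reason. DESeq2's Wald test called none of them at its adjusted threshold, with 34 genes at an unadjusted p under 0.05, and without WT replicate 1 edgeR called none either. Values below are the log2 difference between the 2 genotype effects, then CPM in WT replicates 1 and 2 against APC-KO replicates 1 and 2.

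Cdkn1a, the cell-cycle inhibitor p21, differed by −1.57, with 2874 and 3740 against 2142 and 1950 CPM in NON-EC and 355 and 324 against 790 and 507 CPM in EC. Rbp2, the retinol carrier of Gip-led cells, differed by −1.56, with 480 and 347 against 257 and 185 CPM in NON-EC and 113 and 106 against 256 and 130 CPM in EC. Entpd5 differed by −1.49, with 97.6 and 90.1 against 42.8 and 50.7 CPM in NON-EC and 75.1 and 66.3 against 139 and 101 CPM in EC. In these 3 genes both APC-KO libraries were below WT in NON-EC and above WT in EC. Without APC-KO replicate 1 the values of Cdkn1a and Rbp2 were −1.29 and −1.39.

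Rgs2 differed by −2.05, with 51.2 and 56.7 against 0 and 19.0 CPM in NON-EC and 263 and 221 against 692 and 279 CPM in EC. S100a1 differed by −1.31, with 80.5 and 71.2 against 57.1 and 71.3 CPM in NON-EC and 195 and 145 against 355 and 399 CPM in EC. The antimicrobial lectins Reg3b and Reg3g differed by −2.24 and −2.54, and for both WT replicate 1 was the highest NON-EC library (160 and 106 CPM) and APC-KO replicate 2 the highest EC library (338 and 167 CPM). Without APC-KO replicate 1 the value of Reg3b was −2.32.

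Sst differed by 5.47, and by 3.50 without APC-KO replicate 1, whose 23180 CPM in NON-EC came from 3 cells, and by 4.76 without the cells that Scrublet marked, 1 of those 3 among them. The EC level of Sst was 108 and 0 against 3.66 and 9.11 CPM. Mptx2 differed by 2.59, with 53.1 and 97.4 against 0 and 77.7 CPM in NON-EC. Rab3c, a vesicle GTPase, differed by 1.39, with 24.6 and 34.9 against 0 and 105 CPM in NON-EC. Nupr1 differed by −2.42, with 19.9 and 17.4 against 0 and 20.6 CPM in NON-EC and 18.4 and 16.03 against 7.32 and 103.6 CPM in EC.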

How the results depend on the processing

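The genotype results rest on 2 libraries each, with 13 cells in APC-KO replicate 1. Genes called in NON-EC against EC numbered 1443, and 737 by DESeq2's Wald test, 958 with thinned cells and 915 to 1501 with a library left out. Against EEC-PRE they numbered 2995, 1741 by DESeq2 and 2055 to 3211 with a library left out. Between genotypes 9 were called, 3 by DESeq2, 141 with no filter beyond 1 count, 5 with thinned cells, 1 with free RNA subtracted, 4 without Scrublet's calls and 27 without the cells richest in other-lineage markers, an alternative chosen after seeing the data. Leaving out the first or the second WT library gave 26 and 13, and the first or the second APC-KO library 344 and 42. With the replicate number as a block 3 were called. Same-numbered libraries correlated at −0.034 in their deviations. With 2 libraries per genotype the deviations mirror each other, so this value cannot show whether the numbers pair the libraries.

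For the interaction, 11 genes were called, 0 by DESeq2, 6 with thinned cells, 19 with free RNA subtracted, 7 without the cells richest in other-lineage markers and 0 to 39 with a library left out (0 and 4 for the WT pair, 39 and 31 for the APC-KO pair). In the simulated interaction, again with the same dispersion throughout, none of the genes changed by 1 on the log2 scale and 9.38% of those changed by 2 were recovered. Calls in Cck-led cells went from 84 to 36 by DESeq2 and 22 to 79 with a library left out, in Ghrl-led cells from 556 to 278 and 302 to 590, and in Gip-led cells from 275 to 140 and 136 to 255. Leaving out APC-KO replicate 1 was not run for these, since it gave no sum. Cells with 2 or more hormones went from 34.6% to 13.7% at 20 UMIs and 44.1% thinned, and 27.3% to 39.5% with a library left out.

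Directions turned for Itln1 (−0.18) and Zg16 (−0.018) against EC and for Clca1 (−0.19) and Zg16 (−0.020) against EEC-PRE, without the cells richest in other-lineage markers. In the interaction they turned for Rab3c by DESeq2 (−0.11) and for Mptx2 without those cells (−0.20). With a library left out, Rab3c ran from −7.52 to 1.63 and Mptx2 from −7.35 to 3.74, both lowest without APC-KO replicate 2. Without WT replicate 1, Sst was at −3.27, against up to 8.38 with others left out, and Tac1 in Cck-led cells, one of the hormones that chose those groups, at −2.03, against up to 4.85. The cause was not tested. Of 1377 values recomputed for single genes against EC, 1304 kept direction and side of the threshold, and of 1380 against EEC-PRE 1331 did. Between genotypes 63 of 100 did and 37 lost the threshold.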
